A study of Mus musculus with 5 samples.

Results

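Maturing dentate granule neurons of the newborn mouse hippocampus were taken here as the barcodes with at least 500 genes, at least 1000 UMIs (unique molecular identifiers, which count captured transcripts) and at most 15% mitochondrial UMIs that also held at least 1 UMI of Prox1, at least 1 of Crabp1 or C1ql3, at least 1 of Neurod2 or Neurod6, and none of Eomes, Gad1, Gad2, Mki67 or Top2a. The cells were thus chosen by measured UMI counts of these 10 genes, whose levels are not findings. The rule picked 1070 of 30699 cells within the quality limits, from 40345 barcodes. The libraries were 2 of Trem2 -/- (KO) hippocampus, replicates 2 and 3, and 3 of Trem2 +/+ (WT) hippocampus, replicates 1 to 3, all at postnatal day 1. Every library pooled 2 pups: the sample descriptions give 2 males for the libraries numbered 2 and 1 female with 1 male for the others, while another label gives both sexes throughout. The labels do not give the deleted stretch of Trem2, nor litters, so a p-value measures only the spread between these libraries. The title of the series sets the question of neuronal energy metabolism during development in mice that lack Trem2, a receptor of microglia.

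Dentate granule neurons are the principal excitatory cells of the dentate gyrus. They are made over a long period that runs past birth, and pass from dividing precursors through Neurod1- and Calb2-rich immature stages to Calb1-rich mature cells. Prox1, a homeodomain transcription factor, sets and keeps granule identity. Crabp1 binds retinoic acid in the cytoplasm. C1ql3 is a secreted C1q-like protein of synapses, and Neurod2 and Neurod6 are transcription factors of differentiating excitatory neurons.

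The rule found 164 and 246 cells in the KO libraries, against 165, 123 and 372 in the WT libraries. That was 2.93% and 4.47% of kept cells in KO, and 2.59%, 2.61% and 4.37% in WT. The groups overlapped, with 3.70% ± 1.09 in KO (SD, n = 2) and 3.19% ± 1.02 in WT (SD, n = 3; exact permutation test over libraries, two-sided p = 0.5, where 0.1 is the smallest p that 10 assignments allow). No barcode of a selected cell occurred in a second library. The median selected cell held 8246 and 9744 UMIs in the KO libraries, against 7621, 8044 and 7794 in the WT libraries, so both KO libraries were deeper here (exact permutation p = 0.1).

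The libraries held 60024793 to 91205882 UMIs each, and the selected cells 1234061 to 3976721. Over all kept cells, Trem2 gave 41 and 21 UMIs in KO, against 1873, 1317 and 365 in WT. As CPM (UMIs per 1000000) this was 0.65 and 0.316 in KO, and 27.5, 23.2 and 4.13 in WT, so WT replicate 3 stood far below the other WT libraries. Csf1r, a receptor of microglia, was also lowest in that library among WT, at 12.5 and 3.96 CPM in KO and 32.7, 17.8 and 5.74 in WT. Cells with at least 1 UMI of Csf1r and 3 of C1qa, C1qb and C1qc held 39 and 18 Trem2 UMIs in 83 and 32 KO cells, against 1837, 1266 and 310 in 177, 96 and 65 WT cells. The selected neurons themselves held 0 and 0 Trem2 UMIs in KO and 1, 0 and 1 in WT.

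The rule itself fixed that Prox1, Crabp1 or C1ql3 were present, so only genes outside it bear on the label. Levels are CPM of the summed counts of a cell group in a library, and since the rule chose the cells they are given as a description without a test. Prox1 stood at 838 and 884.9 CPM in KO and 747, 700.1 and 830.1 in WT. Crabp1 stood at 189 and 211 CPM in KO and 165, 110.2 and 182 in WT, and C1ql3 at 80.6 and 127 in KO and 84.3, 118 and 108 in WT. These levels were set in part by the rule, and no genotype difference is read from them.

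Cntnap5a and Sphkap were not part of the rule. Cntnap5a, a contactin-associated adhesion protein, averaged 119 ± 24.2 CPM in the selected cells, against 46.0 CPM in excitatory neurons with Prox1 but neither Crabp1 nor C1ql3 (2523 cells) and 17.5 ± 4.80 CPM in those without Prox1 (9290 cells; SD, n = 5 libraries). Sphkap, an anchor protein of protein kinase A, averaged 137 ± 34.0 CPM, against 80.3 and 55.2 ± 11.0 CPM in the same 2 cell groups. Of the 28 listed granule genes, 25 were outside the rule. Of these, 18 had a higher mean in the selected cells than in neurons without Prox1, 8 of them without overlap between the libraries. A lower mean was seen for 7, 2 of them without overlap. The share of all genes without overlap between these 2 cell groups was not computed. The counts without overlap, for this list and those below, therefore have no background beside them. Sema5a, a semaphorin, had the widest gap of the 25. It averaged 255 ± 46.7 CPM in the selected cells and 12.7 ± 2.40 CPM in neurons without Prox1, a 20.1-fold difference. In Cntnap5a, Sphkap and Sema5a the lowest selected value lay above the highest value in neurons without Prox1.

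**Figure D1:**
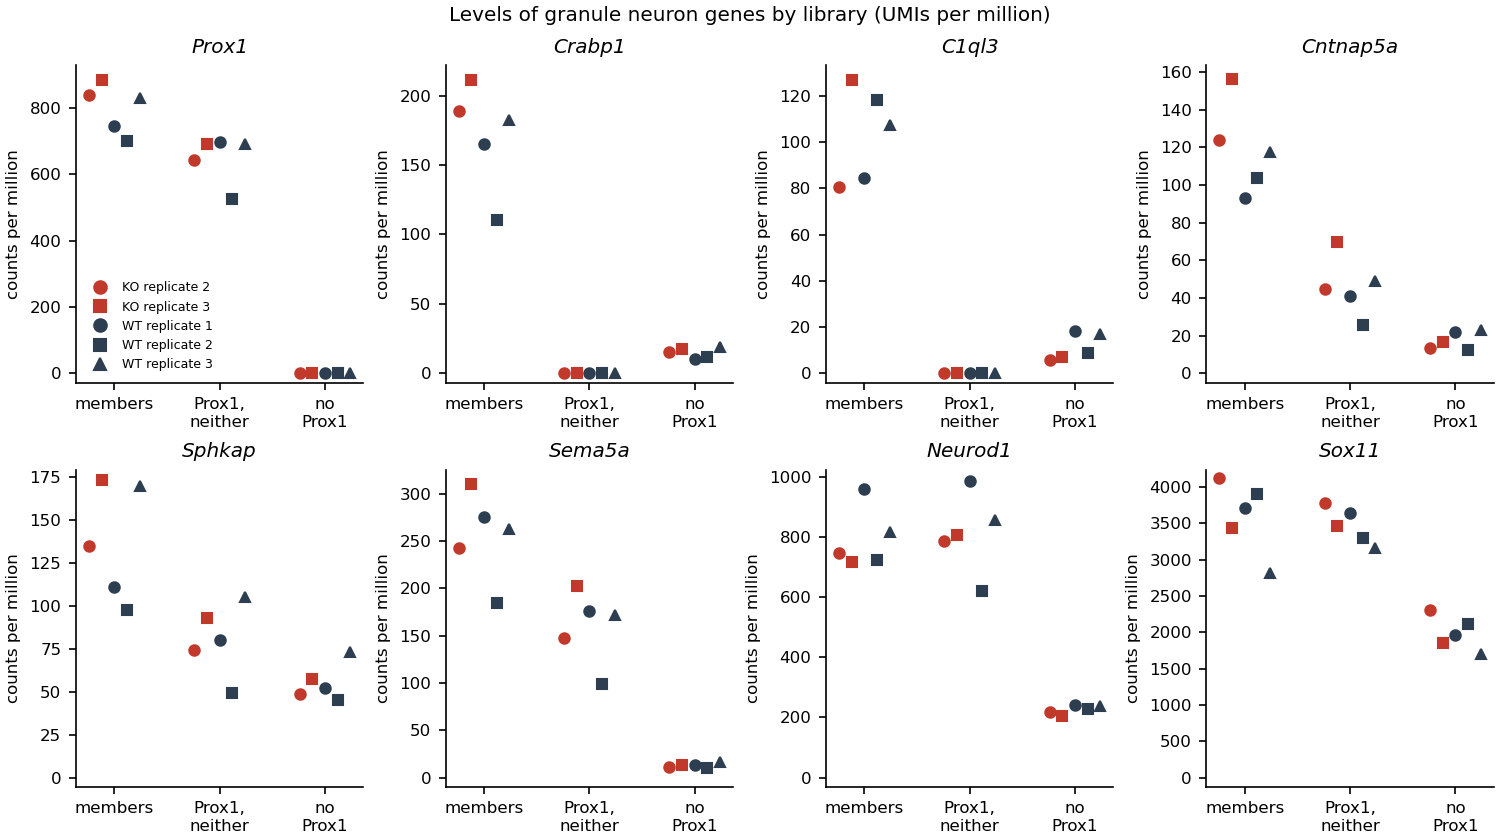
CPM (y axis, linear) of 8 genes in the selected cells, in Prox1-positive excitatory neurons with neither Crabp1 nor C1ql3, and in excitatory neurons without Prox1 (x axis). Each point is 1 library, red for KO and dark blue for WT. The zeros of Prox1, Crabp1 and C1ql3 are set by the rule; Sema5a lies between 184 and 310.4 in the selected cells and near 12.7 without Prox1.

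Of 17 listed genes of the early granule lineage outside the rule, 13 had a higher mean in the selected cells than in neurons without Prox1, 7 of them without overlap between the libraries, and 4 a lower mean. Of 22 listed genes of immature neurons, 7 had a higher and 15 a lower mean, with 5 higher and 5 lower without overlap. C1ql2 and Calb1, which mark mature granule cells, averaged 0.954 ± 0.633 and 39.4 ± 25.8 CPM in the selected cells, against 0.783 ± 0.396 and 10.2 ± 1.80 CPM in neurons without Prox1. Neurod1, which drives early granule differentiation, averaged 793 ± 102 CPM in the selected cells and 226 ± 15.4 CPM in neurons without Prox1. Sox11, a transcription factor of newborn neurons, averaged 3597 ± 502 CPM, against 1989 ± 239 CPM, and the chromatin protein gene Hmgb3 averaged 354 ± 26.6 CPM, against 145 ± 6.18 CPM. The growth cone gene Gap43 went the other way, at 688 ± 157 CPM in the selected cells and 1827 ± 208 CPM in neurons without Prox1 (SD, n = 5).

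All 10 listed CA1 genes and all 10 listed CA3 genes had a lower mean in the selected cells than in neurons without Prox1, 5 and 7 of them without overlap between the libraries. Crym and Pou3f1, listed for CA1, averaged 317 ± 122 and 36.9 ± 22.2 CPM, against 823 ± 107 and 138 ± 35.9 CPM. Nectin3 and Elavl2, listed for CA3, averaged 60.9 ± 20.1 and 209 ± 29.1 CPM, against 170 ± 19.6 and 406 ± 33.2 CPM. The retinoic acid receptor Rarb was higher, at 5.91 ± 1.06 CPM against 1.37 ± 0.310 CPM (SD, n = 5).

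The rule rests on few molecules per cell. The median selected cell held 8 Prox1 UMIs, and 126 cells (11.8%) held exactly 1. For Crabp1 and C1ql3 together the median was 2 UMIs, and 499 cells (46.6%) entered on a single one. For Neurod2 and Neurod6 together 220 cells (20.6%) entered on a single UMI. Just outside the rule, the 2523 Prox1-positive cells with neither Crabp1 nor C1ql3 had a mean Prox1 level of 649.9 CPM, against 800 CPM in the selected cells, and a mean Calb2 level of 746 CPM, against 477 CPM. Prox1 was seen in 23.5% to 30.2% of all excitatory neurons, a group that includes the selected cells. Gate genes were also seen in endothelial cells (at least 2 UMIs of Cldn5 and 1 of Flt1), where free RNA and doublets were not told apart. There Prox1 was seen in 6.38% to 24.5% of cells. For C1ql3 the ranges in excitatory neurons and in endothelial cells were 6.49% to 11.1% and 1.37% to 7.19%. For Crabp1 they were 7.51% to 14.3% and 0% to 3.42%, where 0 of 94 endothelial cells allows up to 3.19%. The endothelial cells were deeper, with median UMI counts of 13930 to 27660 against 8272 to 9898.

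A part of the selected cells carried transcripts of other cell types in bulk. In 94 of the 1070 cells (8.79%), genes of 5 marker lists (radial glia and astrocytes, oligodendrocyte precursors, microglia, endothelial and mural cells, erythroid cells; 50 genes) made up at least 40 of every 10000 UMIs. Only 8 cells lay between 30 and 40 and 5 between 40 and 50, so few cells sat near that limit, which was set after the data were seen. Of these 94 cells, 58 held at least 5 UMIs of Slc1a3, a glutamate transporter of radial glia and astrocytes, 24 held at least 2 of Pdgfra, the marker of oligodendrocyte precursors, and 11 held at least 5 of Foxj1, the master regulator of motile cilia. Dcx, the tubulin-binding protein of young neurons, was at 0 in 40 of the 94 cells and in 18 of the other 976. Of the 94 cells, 70 had entered on C1ql3 alone.

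These cells were unevenly spread over the libraries. They made up 3.66% (6 of 164) and 6.50% (16 of 246) of the selected cells in KO, against 14.5% (24 of 165), 15.4% (19 of 123) and 7.80% (29 of 372) in WT. The groups did not overlap, with 5.08% ± 2.01 in KO (n = 2) and 12.6% ± 4.18 in WT (SD, n = 3; exact permutation p = 0.2). Among cells that entered on C1ql3 alone the shares were 9.84% and 13.0% in KO, and 33.3%, 31.5% and 14.0% in WT. Outside the rule, neurons without Prox1 averaged 12.1% ± 2.79 such cells in KO and 20.01% ± 6.11 in WT, where the groups overlapped (exact permutation p = 0.3). The counts of calls below are therefore given for all 1070 cells and for the 976.

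**Figure D2:**
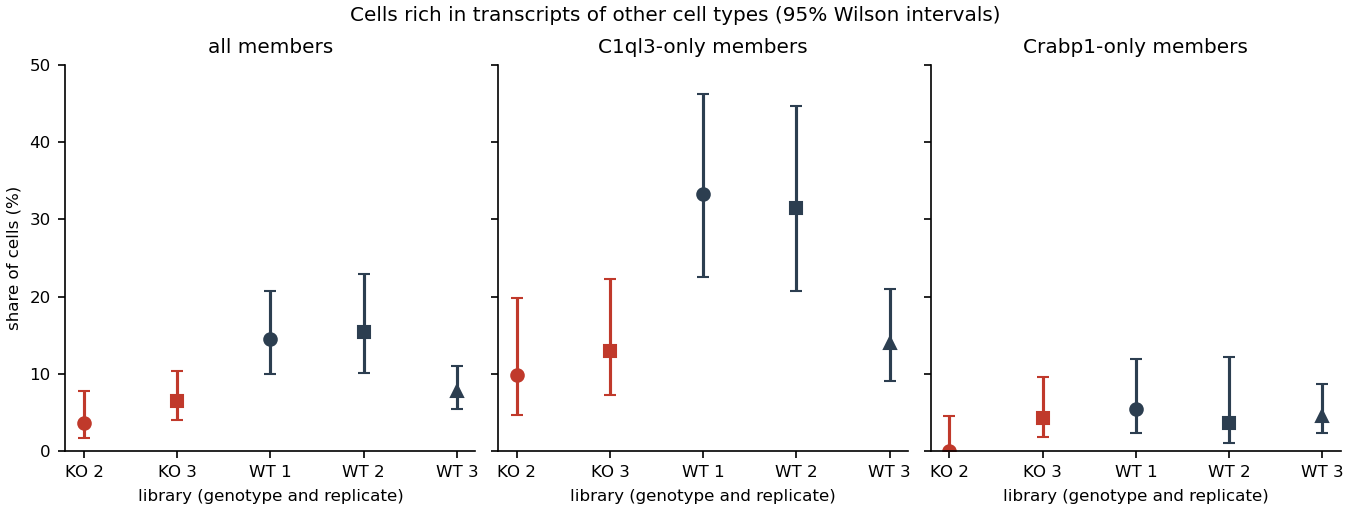
Share of cells (y axis, percent) in which marker genes of other cell types make up at least 40 of 10000 UMIs, by library (x axis; red KO, dark blue WT), over all selected cells, those with C1ql3 alone and those with Crabp1 alone. Bars are 95% Wilson intervals, which cover counting error only; the KO libraries lie at 3.66% and 6.50% of all selected cells, below the 3 WT libraries.

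A much smaller group carried genes of Cajal-Retzius cells, early-born neurons that also make Prox1. Among the 976 cells, 14 (1.43%) held at least 5 UMIs of Reln, Ndnf, Trp73, Lhx1 and Lhx5, and they held 805 of the 850 Reln UMIs. There were 6 and 0 in KO, against 1, 2 and 5 in WT. Reln, a secreted guidance protein of Cajal-Retzius cells, followed them, at 190 and 3.59 CPM in KO and 46.7, 189 and 73.0 CPM in WT over the 976 cells. With all 5 libraries Reln was not called (-0.09, adjusted p = 1.0 in edgeR). Without KO replicate 2, the library with 6 of them, Reln and Ndnf were the only 2 calls over the 976 cells (-4.74 and -4.62). That fit sets a single KO library, the one with 0 such cells, against WT, assumes that it varies as the WT libraries do, and shows no fall in KO.

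Within the rule, cells differed by which gate gene they showed. C1ql3 alone was seen in 378 cells, Crabp1 alone in 524 and both in 168. Crabp1 alone made up 49.4% and 48.0% of the selected cells in KO and 56.4%, 45.5% and 47.3% in WT, means of 48.7% ± 1.01 in KO and 49.7% ± 5.81 in WT (SD, n = 2 and n = 3), which overlapped (exact permutation p = 1.0). Cells with both genes were the deepest: over the 976 cells their median UMI counts averaged 11250 in KO and 9103 in WT, against 9180 and 7178 for C1ql3 alone and 8339 and 7639 for Crabp1 alone.

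Cells with C1ql3 alone and cells with Crabp1 alone were compared within each library. Both groups were set by UMIs of Crabp1 and C1ql3, which the rule also used. Of the 976 cells, 436 (44.7%) held a single such UMI, so a count of 0 need not be a true absence. The calls therefore describe genes that went with these counts and do not show 2 kinds of cell. In the 976 cells, the genes higher with C1ql3 alone included the nuclear receptor gene Nr2f2, the adhesion genes Negr1 and Cadm1 and the granule gene Bcl11b, and those higher with Crabp1 alone included Calb2, Sox4 and Neurod1 of immature granule neurons. Listed genes of axon guidance and adhesion went both ways, with 4 of 31 called higher and 5 lower. Of 8371 genes outside the rule, 242 (2.89%) passed an adjusted p of 0.05 in edgeR's quasi-likelihood test with library as a block, 132 higher (1.58%) and 110 lower (1.31%) with C1ql3 alone. The median of all tested genes was 0.01 on the log2 scale. Over all 1070 cells the count was 311 of 8736 (3.56%), 184 higher (2.11%) and 127 lower (1.45%), with 132 genes in both lists, which is 42.4% of the first list over 1070 cells and 54.5% of the list over 976.

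The additional calls over all 1070 cells included glial genes. Hes5, a Notch target of neural stem cells, averaged 188 ± 97.6 CPM with C1ql3 alone and 23.7 ± 13.7 CPM with Crabp1 alone over all 1070 cells (log2 difference 2.84 ± 0.28 SE, adjusted p = 0.000475), and Slc1a3 averaged 333 ± 222 and 57.3 ± 26.0 CPM (2.22 ± 0.33 SE, adjusted p = 0.00376). Of the 14 listed genes of radial glia and astrocytes, 9 of 13 tested were called higher over all 1070 cells. Among the 976 cells, 0 of 5 tested were called higher and 1, Vim, lower. This list was part of the limit that set the 976 cells, so the loss of its calls was in part built in. The values that follow are those of the 976 cells.

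The clearest gene on the C1ql3 side was Nr2f2, an orphan nuclear receptor that patterns the hippocampal primordium. It stood at 198.5, 112 and 163, 266.5, 163 CPM with C1ql3 alone (KO replicates 2 and 3, then WT replicates 1 to 3), against 72.4, 47.0 and 47.1, 83.0, 40.2 CPM with Crabp1 alone. Nr2f2 also stands in the list of 15 interneuron markers, of which it was the only 1 expressed enough to be tested. It was higher in 5 of 5 libraries, as naming by size required, and the ranges did not overlap (log2 difference 1.62 ± 0.13 SE, adjusted p = 1.29e-10).

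Negr1, a neuronal adhesion protein, followed with 170.4, 327 and 151, 98.7, 213 CPM, against 77.0, 117 and 70.1, 48.0, 81.6 CPM (1.28 ± 0.11 SE, adjusted p = 9.34e-10). The synaptic adhesion gene Cadm1 averaged 315 ± 67.9 CPM, against 150 ± 34.2 CPM (1.02 ± 0.12 SE). Ntrk2, the receptor of the growth factor BDNF, averaged 82.0 ± 9.49 CPM, against 43.3 ± 9.22 CPM (0.93 ± 0.15 SE). Lrp1b, a lipoprotein receptor relative, and the glycosyltransferase gene B3galt2 also passed, at 0.89 ± 0.12 and 0.91 ± 0.15 (adjusted p = 2.08e-05 and 0.00029 in edgeR). All of these were higher in 5 of 5 libraries, but that was required of genes named by size and adds nothing to the test. In either direction 10.8% of tested genes showed the pattern.

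Nts and Pou3f1, genes of subicular and CA1 neurons, had 2 of the largest differences, at 3.19 ± 0.39 and 1.76 ± 0.19. Their UMIs sat in few cells: the 10 cells with most of them held 85.9% of the Nts and 55.3% of the Pou3f1 UMIs in the 812 cells with 1 gate gene, against 17.1% for Nr2f2 and 13.9% for Negr1. Their levels with C1ql3 alone ran from 9.87 to 155 CPM and from 13.2 to 166 CPM between libraries. Beside this, the 10 listed genes of CA1 pyramidal cells summed to 319 to 1017 CPM with C1ql3 alone and to 284 to 591 CPM with Crabp1 alone, and their part in the other differences was not tested.

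Of the 28 listed granule genes, 12 outside the rule were tested, of which 5 were called higher with C1ql3 alone and 1, Calb2, lower, with 9 above and 3 below 0. Of all tested genes, 1.58% were called higher and 1.31% lower. With the 94 cells included, 4 of 13 were called higher and 1 lower. Bcl11b, a transcription factor needed for granule cell maturation, averaged 331 ± 48.1 CPM, against 201 ± 35.8 CPM (0.70 ± 0.08 SE, adjusted p = 1.12e-06). The ciliary transcription factor gene Rfx3 (0.55 ± 0.12), Cntnap5a (0.43 ± 0.12), the calcium sensor gene Ncald (0.60, higher in 3 of 5 libraries) and the teneurin Tenm1 (1.65 ± 0.23) made up the rest. Sphkap was not called: its log2 difference was 0.21 ± 0.11 SE (adjusted p = 0.461 in edgeR).

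Of 25 tested genes of the glutamate postsynapse, 22 were above 0 and 4 were called higher: the NMDA receptor subunit gene Grin2b (407 ± 85.3 CPM, against 309 ± 74.1 CPM; 0.38), Grm5, Grik3 and Gria4. The list median was 0.29, against 0.01 over all genes, of which 1.58% were called higher. In the fit over all 1070 cells 16 of 25 were above 0 and edgeR called none of them. Of 9 tested genes of GABA-A receptors and chloride transport all 9 were above 0, with a list median of 0.38, and 2 were called higher, Gabrb1 (0.80) among them. Of 28 tested presynaptic genes 1 was called higher (Nrxn3, 0.75), and of 19 tested ion channel genes 1 (Kcnma1, 0.64). The C1q-like protein receptor Adgrb3 (0.54), the only 1 of its list that was tested, was called higher as well. Under the alternative settings Grm5 and Gria4 each lost the call in 5. Grin2b, Kcnma1 and Adgrb3 each lost it in 4, Gabrb1 and Nrxn3 in 3, and Grik3 in 2.

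Of 12 tested genes of the early granule lineage outside the rule, 7 were called lower with C1ql3 alone and none higher, with a list median of -0.39. They were 7 of the 110 genes called on the Crabp1 side (1.31% of all tested genes), and over all 1070 cells 9 of 13 were called lower. Calb2, the calcium-binding protein of immature granule neurons, stood at 443, 178 and 610, 526, 328 CPM with C1ql3 alone, against 626, 674 and 844, 729, 694.5 CPM with Crabp1 alone (-0.92 ± 0.12 SE, adjusted p = 1.04e-05). Sox4, a transcription factor of newborn neurons, averaged 1320 ± 335 CPM, against 1763 ± 139 CPM (-0.49 ± 0.09 SE). Igfbpl1, Neurod1, Lhx2, the somatostatin receptor gene Sstr2 and the matrix gene Mfap4 (-1.72 ± 0.20) were the others. The secreted guidance cue Sema3c fell by 1.05, the neuropeptide Gal by 0.90 and the Eph receptor gene Epha4 by 0.59 with C1ql3 alone. All fell in 5 of 5 libraries, which was required of genes named by size.

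**Figure D3:**
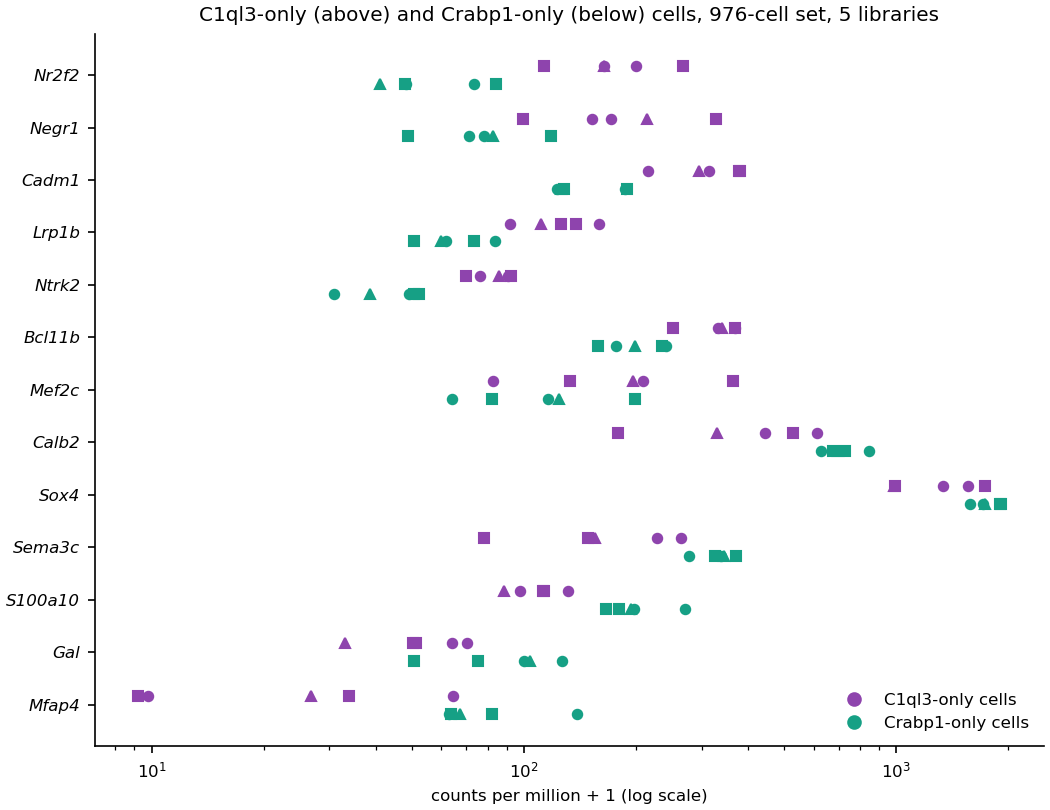
CPM plus 1 (x axis, log scale) of 13 genes in cells with C1ql3 alone (purple, upper row of each gene) and Crabp1 alone (green, lower row) over the 976 cells; each point is 1 of 5 libraries, with circle, square and triangle for its place within its genotype. Nr2f2 ranges from 112 to 266.5 with C1ql3 alone and from 40.2 to 83.0 with Crabp1 alone, and Calb2 shows the opposite order, from 178 to 609.6 and from 626 to 843.6.

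Cells with both genes did not lie midway for every gene. Mef2c, an activity-regulated transcription factor, averaged 467 CPM in them, above 196 ± 107 CPM with C1ql3 alone and 116 ± 51.9 CPM with Crabp1 alone. Cntnap5a averaged 220 CPM in cells with both, against 137 and 97.1 CPM. Calb2 was lowest in them, at 199.8 CPM, and Nr2f2 at 74.4 CPM lay near its Crabp1-only level of 57.9 ± 18.6 CPM. These are descriptions, since cells with both genes were in no test.

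Among 37 nuclear genes of complex I, 25 of complexes II to IV, 17 of ATP synthase, 13 mitochondrially encoded genes, 15 of glycolysis and 15 of the TCA cycle, none was called over the 976 cells, with list medians from -0.06 to 0.06. With the 94 cells included, 1 of 16 glycolysis genes was called higher, Aldoc (1.93, adjusted p = 0.00493 in edgeR), an aldolase that astrocytes express strongly. Ppargc1a, the coactivator that drives mitochondrial biogenesis, was called higher with C1ql3 alone, at 21.9 ± 7.62 CPM against 9.25 ± 1.99 CPM (1.20, adjusted p = 0.00819 in edgeR).

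The number of calls in the split varied with the setting. After thinning to 3000 UMIs per cell edgeR called 17 genes over the 976 cells, and 100 of the 109 earlier calls still tested kept their direction, and at a mitochondrial limit of 5% it called 59. DESeq2 called 56 genes over the 976 cells, all 56 among the 242, and without WT replicate 3, which held 343 of the 976 cells, edgeR called 79, of which 78 were among the 242. Requiring 2 Prox1 UMIs gave 260 calls, and the 219 of the 242 genes that were tested there all kept their direction. Cntnap5a was above 0 in each of 13 alternatives but lost its call in 9 of them (0.08 to 0.51), among them 2 Prox1 UMIs (adjusted p = 0.117 in edgeR).

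Between KO and WT, few genes differed in the selected cells, and none was called once the 94 cells rich in transcripts of other types were left out. Over all 1070 cells, 21 of 11019 genes passed (0.191%; edgeR), 5 higher (0.0454%) and 16 lower (0.145%) in KO. The genes higher in KO were 4 hemoglobin genes and Grp, the gastrin-releasing peptide. Among the 16 lower genes were the metallothioneins Mt1 and Mt2, the ciliary gene Foxj1 and the glial transcription factor gene Sox9. Over the 976 cells, edgeR called 0 of 10438 genes (0.0%) and DESeq2 called 0, where 352 and 105 genes had an unadjusted p under 0.05. The 4 hemoglobin genes and Sox9 are on the lists that set the 976 cells, so the loss of their calls was in part built in. Single libraries moved the count over all 1070 cells: edgeR called 7 genes without KO replicate 2, 41 without KO replicate 3, 2 without WT replicate 1, 34 without WT replicate 2 and 112 without WT replicate 3.

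The hemoglobin calls came from 1 droplet in each KO library, which held 1036 of 1038 Hbb-bs UMIs in replicate 2 and 742 of 755 in replicate 3. The WT libraries held 7, 3 and 18 Hbb-bs UMIs in all. Both droplets were among the 94 cells.

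The 8 largest decreases were led by Slc14a2, at 0.541 and 1.67 CPM in KO and 13.4, 17.8 and 14.3 CPM in WT (-3.54 ± 0.49 SE, adjusted p = 0.025). Ecrg4, a secreted protein of choroid plexus and ependyma, stood at 3.24 and 11.7 CPM in KO and 91.0, 55.9 and 80.7 CPM in WT (-3.19 ± 0.36 SE, adjusted p = 0.00832). Foxj1 stood at 2.16 and 6.70 CPM in KO and 26.3, 26.7 and 35.7 CPM in WT (-2.61 ± 0.37 SE, adjusted p = 0.0259). In each, the KO libraries lay below all WT libraries, as for 24.1% of all tested genes in either direction over the 1070 cells. Naaa, S100a6, Zfp36l1 and Hspa2 fell by 2.79, 2.78, 2.31 and 2.11 on the log2 scale.

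Beside these calls, the 14 listed genes of radial glia and astrocytes summed to 1734 and 1399 CPM in KO, against 3552, 5518 and 1748 CPM in WT, and 14 of 14 tested were below 0 with a list median of -1.36. The same list summed to 475 and 547 CPM in KO and 699, 532 and 655 CPM in WT over the 976 cells. Of the 21 called genes, 10 were still tested there, and none was called. The rest were not tested over the 976 cells and have no result there.

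Mt1 and Mt2, neighbouring genes of small metal-binding proteins, changed together over all 1070 cells. Mt1 stood at 68.7 and 83.0 CPM in KO and 258, 368 and 312 CPM in WT (-2.01 ± 0.18 SE, adjusted p = 0.0019), and Mt2 at 18.9 and 20.8 CPM in KO and 85.5, 117.5 and 75.4 CPM in WT (-2.16 ± 0.23 SE, adjusted p = 0.00704). With the 94 cells left out Mt1 stood at 22.3 and 35.2 CPM in KO and 48.9, 36.9 and 76.7 CPM in WT (-0.95 ± 0.27 SE, adjusted p = 1.0), and the Mt2 groups overlapped. Their promoters are shown because the pair moved together (RefSeq, GRCm38.p6, 250 bases before to 50 after the start, both on the plus strand, chr8:94178839-94179138 for Mt1 and chr8:94172368-94172667 for Mt2). Capitals mark TGCNCNC, a relaxed spelling of the metal response element, searched on both strands.
Mt1: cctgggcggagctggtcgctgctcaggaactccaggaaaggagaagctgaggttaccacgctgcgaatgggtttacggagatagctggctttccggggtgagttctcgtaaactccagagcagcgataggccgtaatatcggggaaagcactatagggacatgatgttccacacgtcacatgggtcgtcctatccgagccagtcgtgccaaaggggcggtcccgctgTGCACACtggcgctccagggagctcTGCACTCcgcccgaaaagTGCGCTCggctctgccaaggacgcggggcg
Mt2: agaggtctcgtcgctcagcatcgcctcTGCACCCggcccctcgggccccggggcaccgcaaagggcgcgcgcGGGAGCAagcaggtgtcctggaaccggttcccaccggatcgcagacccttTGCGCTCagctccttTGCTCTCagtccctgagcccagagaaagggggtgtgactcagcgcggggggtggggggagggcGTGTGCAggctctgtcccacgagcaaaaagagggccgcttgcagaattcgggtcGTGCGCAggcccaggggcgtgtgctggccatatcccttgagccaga
The letters occur 3 times in the Mt1 window, all on the plus strand, and 6 times in the Mt2 window, 3 on each strand, with no overlap between matches. Of 32851 promoter windows of 300 bases, 51.0% hold at least 1 match, 7.1% at least 3 and 0.225% at least 6. A match is a run of letters and was not tested as a site in these cells.

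**Figure D4:**
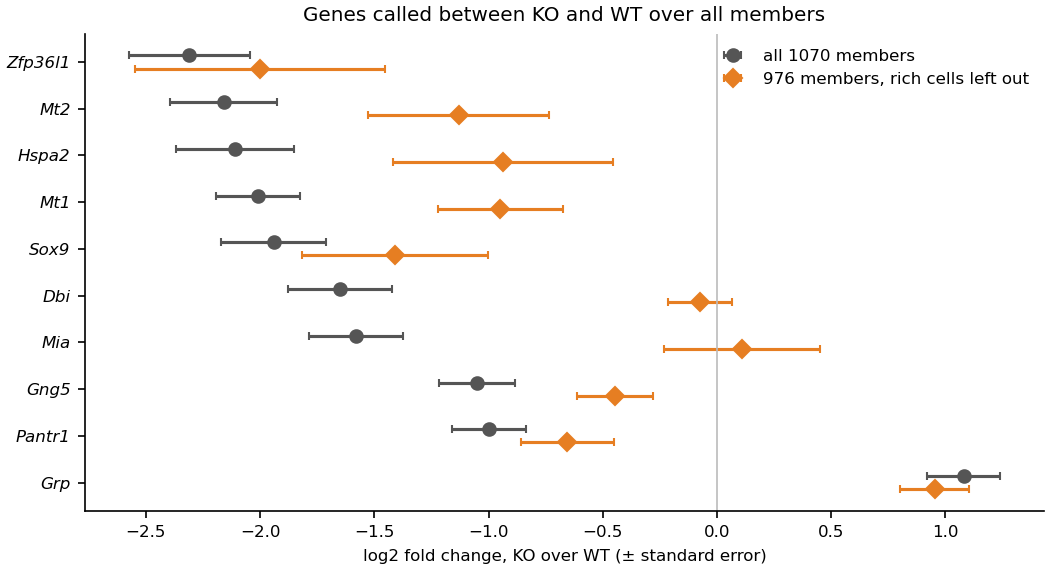
Log2 fold change of KO over WT (x axis, with standard errors) for the 10 genes called over all 1070 selected cells (grey circles) that were also tested over the 976 (orange diamonds). Dbi and Mia lie near 0 once the 94 cells are left out, while Grp keeps 0.95 of 1.08.

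Of the 10 called genes tested in both cell sets, Grp moved least when the 94 cells were left out. It stood at 85.4 and 87.7 CPM in KO and 34.8, 40.5 and 47.0 CPM in WT over all 1070 cells (1.08 ± 0.16 SE, adjusted p = 0.0343). In the 976 cells it stood at 89.6 and 89.3 CPM in KO and 42.2, 46.9 and 49.5 CPM in WT, again without overlap (0.95 ± 0.15 SE, unadjusted p = 2.2e-05, adjusted p = 0.23 in edgeR), a pattern of no overlap that 17.8% of tested genes showed there. With at least 2 Prox1 UMIs it passed over the 976 cells, and likewise in a fit that had the count of males per pool as a term (1.77 and 0.94 on the log2 scale, adjusted p = 0.0361 and 0.0487 in edgeR). Over the 976 cells Grp passed in 4 alternatives and missed in 10, where it ran from 0.35 to 1.33. Over all 1070 cells it kept its call in 8 alternatives and lost it in 5 (0.49 to 1.49).

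The other genes with the smallest p over the 976 cells missed the threshold, each with an adjusted p of 1.0 in edgeR. Above 0 were Mrps10, a protein of the small mitochondrial ribosomal subunit, at 91.3 and 89.0 CPM in KO and 63.7, 52.9 and 57.8 CPM in WT (0.64 ± 0.15 SE), the RNA gene Kcnmb4os2, at 38.8 and 38.7 CPM in KO and 27.4, 22.0 and 21.8 CPM in WT (0.74 ± 0.20 SE), and the AMPA receptor partner Shisa9, at 31.4 and 60.3 CPM in KO and 16.3, 14.98 and 29.2 CPM in WT (1.10 ± 0.30 SE). Below 0 were Fabp7, a fatty acid carrier of radial glia, at 49.1 and 57.8 CPM in KO and 107, 76.9 and 88.1 CPM in WT (-0.74 ± 0.17 SE), the transcription factor gene Stat3 (-0.79 ± 0.19 SE), the long RNA Rmst (-1.28 ± 0.33 SE) and the protocadherin Pcdh10 (-1.38 ± 0.36 SE). None of the 7 had overlapping groups, a pattern that 17.8% of tested genes showed, and the 7 were chosen by their p in the same fit.

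Granule identity genes gave no call between the genotypes. Of 18 tested members of the list outside the rule over the 976 cells, 14 were above 0, with a list median of 0.28 against 0.00 over all genes. The 28 listed genes, rule genes included, summed to 3015 and 3317 CPM in KO and 3132, 2828 and 3168 CPM in WT, which overlapped. Ncald (0.51 ± 0.18 SE), Rfx3 (0.35 ± 0.13 SE) and Bcl11b (0.31 ± 0.13 SE) had positive values and Calb2 a negative one (-0.47 ± 0.19 SE), each with an adjusted p of 1.0 in edgeR. Calb2 stood at 486 and 362 CPM in KO and 748, 578 and 448 CPM in WT. Cntnap5a stood at 129.5 and 165 CPM in KO and 104, 126 and 131 CPM in WT, and Sphkap at 142 and 180.4 CPM in KO and 131, 116 and 190 CPM in WT, both with overlapping groups. The median depth of the 976 cells was also higher in both KO libraries (means of 8940 in KO and 7680 in WT), and its part in these values was not tested.

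Genes of energy metabolism, the subject of the series' title, gave no call in these neurons, over either cell set. Over the 976 cells, the 37 tested nuclear genes of complex I split into 19 above and 18 below 0 with a median of 0.00, and their summed level was 9227 and 9796 CPM in KO and 9493, 9105 and 9781 CPM in WT. Complexes II to IV (9 above, 16 below, median -0.04), ATP synthase (9 and 8, 0.03), glycolysis (8 and 9, -0.01), the TCA cycle (8 and 7, 0.02) and mitochondrial biogenesis and dynamics (6 and 10, -0.02) were as close to the median of all genes, 0.00.

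The mitochondrially encoded genes had the highest median of these lists, with no call and with overlapping groups. Of 13, 8 were above 0 with a median of 0.17, and they summed to 59780 and 54110 CPM in KO and 49540, 56810 and 40940 CPM in WT, with WT replicate 3 lowest. mt-Nd1, a subunit of complex I, stood at 4264 and 3903 CPM in KO and 3490, 3374 and 3032 CPM in WT (0.32 ± 0.11 SE, adjusted p = 1.0 in edgeR). The median mitochondrial share of these cells averaged 5.49% ± 0.361 in KO and 4.81% ± 0.890 in WT (SD, n = 2 and n = 3; exact permutation p = 0.4).

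**Figure D5:**
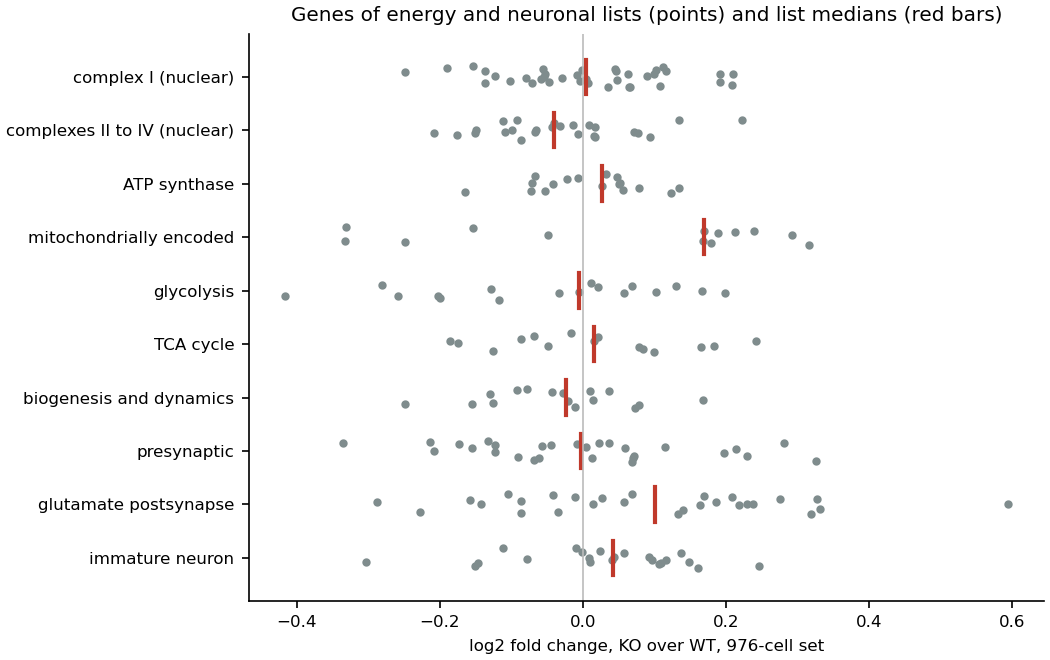
Log2 fold change of KO over WT (x axis) of each tested gene (points) in 10 gene lists (rows) over the 976 cells, with the list median as a red bar. No point passed the test; the mitochondrially encoded genes have the highest median, 0.17.

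Whether the genotype difference was particular to these neurons was tested against the 9290 excitatory neurons without Prox1. Over all 1070 cells, 4 of 15174 genes (0.0264%) had a different KO effect, 3 higher (0.0198%) and 1 lower (0.00659%): Vim, an intermediate filament of glia and early neurons, at -1.26 ± 0.12 SE (adjusted p = 0.000362, edgeR), and Hbb-bs, Hbb-bt and Hba-a2. Vim stood at 102 and 75.0 CPM in the selected KO cells and 233, 452 and 214 CPM in the selected WT cells, against 267 and 160 CPM in KO and 252, 397 and 209 CPM in WT neurons without Prox1. All 4 called genes are on the marker lists that set which cells were rich in transcripts of other types. With those cells left out of both groups, edgeR called 0 of 13694 genes and DESeq2 called 0, where 461 and 119 genes had an unadjusted p under 0.05. Grp then had the smallest p, 0.77 ± 0.14 SE (adjusted p = 0.539), with 238 and 225 CPM in KO and 197, 262 and 189 CPM in WT neurons without Prox1.

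Counts were simulated for the fits over all 1070 cells, not for those over the 976. Every simulated gene had the same spread between libraries, and only genes with a mean of at least 20 counts were changed. Recovery of genes with a wider spread or fewer counts was therefore not measured. With 100 genes changed by 1 on the log2 scale, edgeR recovered 71 in a KO against WT design of this size over 11024 genes, 93 in the split within libraries over 8741 genes and 49 in the test of the difference over 15179 genes. DESeq2 recovered 45, 78 and 38. A change of 2 was recovered for 100, 100 and 89 of 100 genes by edgeR and for 91, 100 and 79 by DESeq2.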

How the data were processed

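Single cells of 5 hippocampal pools were profiled with 10x 3' chemistry, and the deposited files hold raw UMI counts per gene and barcode for 32285 features. Per the submitters' processing notes the reads were processed with Cell Ranger 6.1 (6.1.1 per the file headers) on mm10. No source used here gives the annotation release. Each library's matrix was used as deposited, and 0 columns of per-sample values were left unused.

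Cells were kept at 500 genes, 1000 UMIs and 15% mitochondrial UMIs. Counts were summed per library and cell group, given as CPM of that sum, and tested with edgeR 4.0.16 (quasi-likelihood, TMM factors, filterByExpr, Benjamini-Hochberg over all genes tested, threshold 0.05) in R 4.3.3, with DESeq2 1.42.0 as an alternative. The KO against WT fit had genotype alone; the comparison of C1ql3-only with Crabp1-only cells and the test of the difference between cell groups had library as a block. The 10 genes of the selection rule are left out of all calls. Shares were compared with a two-sided exact permutation test over 10 assignments. Wilson 95% intervals, and limits for a count of 0 (3 counts), cover counting error only. Other steps used Python 3.11.15, scanpy 1.11.5 and scipy 1.17.1.

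Doublets were scored with Scrublet and left in, and leaving them out was an alternative. Its automatic threshold marked 0.143%, 0.036% and 0.17% of cells in KO replicates 2 and 3 and WT replicate 2, under 0.5%, so there the highest scores were marked up to 0.8% per 1000 barcodes.

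The members and gene lists were chosen with earlier results of these data known. Leaving out the cells rich in transcripts of other types (50 genes, 40 per 10000 UMIs) and the Cajal-Retzius-rich cells was decided after the data were seen. Genes are named by size among those past the threshold with a mean of at least 20 counts (up to 8 a direction for genotype, up to 15 for the split), by smallest p where few passed, and as members of the lists. In the split, genes named by size also had to have the same sign in all 5 libraries. Genes for the description of levels and of cells with both gate genes were chosen after their values were seen. On simulated counts edgeR called 9 of the unchanged genes in the KO against WT design, 13 in the split and 8 in the test of the difference. Promoters come from RefSeq, where 220 of 295 named genes had an entry.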

Additional observations from a re-analysis of the deposited data

Results flagged for a closer look

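Over all 1070 cells, 4 genes had a KO effect that differed between the selected cells and excitatory neurons without Prox1, by the test of that difference (edgeR). Vim differed by -1.26 (adjusted p = 0.000362), and over the 976 cells by -0.41 (adjusted p = 1.0). Hbb-bt differed by 9.53, Hbb-bs by 6.44 and Hba-a2 by 4.56 (adjusted p = 7.77e-05, 6.76e-06 and 0.0286 in edgeR). A single droplet held 99.8% of the selected cells' Hbb-bs UMIs in KO replicate 2 and 98.3% in KO replicate 3. Among 30 genes looked at over the 5 libraries, 0 had a library set apart by Dixon's limit of 0.71, which chance passes in about 1 of 20 groups.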

How the results depend on the processing

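Among values of single genes under an alternative, 836 kept direction and side of the threshold, 156 lost the call, 17 gained it and 4 reversed; for none was the cause tested. The KO against WT count over all 1070 cells (21) was 0 at a mitochondrial limit of 5%, 3 without doublets, 62 with 2 Prox1 UMIs, 2 after thinning to 3000 UMIs, 46 in DESeq2, 461 with no filter, 165 with male pups as a covariate, 0 without the cells rich in other types, and 2 to 112 with a library left out. Over the 976 cells (0) it was 1 with 2 Prox1 UMIs, 12 with no filter, 1 with male pups and 0 to 2 with a library left out.

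With a replicate block the KO against WT count was 402 over all 1070 cells and 19 over the 976. Deviations from the group means correlated at r = 0.316 and 0.243 in same-numbered libraries and at -0.316 to 0.15 in other pairs. The deviations of the 2 KO libraries are equal and opposite by construction. The values therefore mirror each other and are not independent agreements. Only 2 pairs exist and the labels give no shared litter or day, so they share only a number.

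The split count over all 1070 cells (311) was 111 at 5%, 196 with 2 Prox1 UMIs, 26 after thinning, 146 in DESeq2, 788 with no filter and 155 to 250 with a library left out; over the 976 (242) it was 59 at 5%, 17 after thinning, 56 in DESeq2 and 79 to 270 with a library left out. The count of genes with a different KO effect (4) was 2 without doublets, 41 with 2 Prox1 UMIs, 11 in DESeq2, 182 with no filter, 0 without the cells rich in other types and 6 to 42 with a library left out; over the 976 (0) it was 1 without doublets, 1 with 2 Prox1 UMIs, 2 after thinning, 17 with no filter and 0 to 7 with a library left out.

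The KO minus WT difference in the selected cells' share (0.507 percentage points) was -0.213 at 5% and -0.263 to 1.28 with a library left out. That in the Crabp1-only share (-1.06) was 3.3 at 5%, 1.31 after thinning and -3.16 to 2.26 with a library left out. At 5%, Ncald (-0.0896) and Bcl11b (-0.0991) reversed over the 976 cells. After thinning, the difference in KO effect reversed for Hbb-bs (-0.60) over all 1070 cells and for Cck (0.28) over the 976.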

Other observations

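Immediate early genes, which neurons and other cells switch on after stimulation or tissue handling, gave no call between KO and WT. Over all 1070 cells, 3 of 18 tested were above 0 and 15 below, with a median of -0.57 against -0.01 over all genes. Over the 976 cells, 6 of 13 were above 0 and 7 below, with a median of -0.04. In the split over all 1070 cells, 6 of 14 immediate early genes were called higher and 1 lower with C1ql3 alone. Of all tested genes, 2.11% were called higher and 1.45% lower there. Over the 976 cells 0 of 11 immediate early genes were called by edgeR.

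Cholesterol synthesis genes leaned above 0 in KO over the 976 cells, with 18 of 22 above 0, a median of 0.09 and no call. Their summed level overlapped between the groups, at 1223 and 1421 CPM in KO and 1207, 1107 and 1445 CPM in WT, with WT replicate 3 highest. Over all 1070 cells 12 of 22 were above 0, with a median of 0.01.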
